A study of Mus musculus with 16 samples.

Results

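SPARC, the fibulins, fibronectin and the lysyl oxidases are secreted proteins that organise the extracellular matrix around muscle stem cells (MuSCs). Their genes were followed in RNA sequencing of MuSCs with and without deletion of TRF2, a protein of the shelterin complex that caps telomeres and is encoded by Terf2. The group consists of 9 of the 24411 genes of the count table, namely Sparc, Fbln1, Fbln2, Fbln5, Fn1, Lox, Loxl1, Loxl2 and Loxl3. These 9 genes were chosen by name with the genotype and injury comparisons of these libraries already known, so their levels, fold changes and calls are given as a description and without p-values.

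MuSCs were sorted from mouse hindlimb muscle and gave 16 libraries, 4 in each of 4 groups. The control groups, which the labels call wild type, were taken from uninjured muscle or at 3 days post injury (3 DPI) with 10 µl of notexin, a snake venom toxin that destroys myofibers. The groups labelled TRF2 knockout, the study's TRF2 MuSC-cKO and written cKO here, were taken from uninjured muscle or at 3 DPI with the same dose. In the study's methods the deletion is made with a tamoxifen-inducible Cre expressed from Pax7, the transcription factor gene that marks MuSCs, in young adult mice on a C57BL/6 background. Whether control mice carried the floxed allele or Cre, or received tamoxifen, is not given in the labels, and neither is the number of mice behind each library, so the spread between libraries may be partly technical. Sorted cells were negative for CD45, CD31, CD11b and Sca1 and positive for α7-integrin with VCAM or CD34.

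SPARC is a matricellular protein that binds collagen and modulates how cells attach to it. Fibulins are calcium-binding glycoproteins of basement membranes and elastic fibres, fibronectin forms the provisional matrix of wounds and is bound by integrins, and lysyl oxidases are copper-dependent enzymes that oxidise lysines of collagen and elastin so that the fibres become crosslinked. In regenerating muscle, fibronectin is known as a transient component of the MuSC niche.

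Promoter windows were taken for 4 of the 9 genes from RefSeq, build GRCm38.p6, as 250 bases before and 50 bases after a transcript start. The windows of Sparc (chr11:55420031-55420330, minus strand) and Fbln2 (chr6:91212514-91212813, plus strand) are printed because these genes fell in the same comparisons, and the first window of Fbln5 (chr12:101819070-101819369, minus strand) because this gene of the same family as Fbln2 did not. Each is written 5′ to 3′ on the strand of the gene, and capitals mark matches to the E-box CANNTG and to the GC box GGGCGG on either strand.
Sparc: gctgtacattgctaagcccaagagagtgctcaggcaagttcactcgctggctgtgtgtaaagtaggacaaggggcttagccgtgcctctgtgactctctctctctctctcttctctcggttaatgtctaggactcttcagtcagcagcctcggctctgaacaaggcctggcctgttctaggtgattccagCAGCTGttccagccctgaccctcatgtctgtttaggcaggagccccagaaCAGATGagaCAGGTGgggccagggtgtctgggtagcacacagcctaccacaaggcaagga
Fbln2: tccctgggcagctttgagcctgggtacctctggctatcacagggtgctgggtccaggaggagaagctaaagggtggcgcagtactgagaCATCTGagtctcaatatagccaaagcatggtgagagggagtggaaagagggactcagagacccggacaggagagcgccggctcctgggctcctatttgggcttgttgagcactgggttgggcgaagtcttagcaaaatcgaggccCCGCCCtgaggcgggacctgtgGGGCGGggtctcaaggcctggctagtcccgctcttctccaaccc
Fbln5: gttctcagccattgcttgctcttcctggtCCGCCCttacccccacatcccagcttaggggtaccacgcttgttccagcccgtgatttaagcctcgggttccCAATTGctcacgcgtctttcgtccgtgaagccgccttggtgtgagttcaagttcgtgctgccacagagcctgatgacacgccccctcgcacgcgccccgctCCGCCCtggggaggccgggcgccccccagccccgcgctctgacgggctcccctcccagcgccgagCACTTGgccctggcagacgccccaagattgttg

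The Sparc window held 3 E-boxes and no GC box. The Fbln2 window held 1 E-box and 2 GC boxes, one on each side of the transcript start. The Fbln5 window held 2 E-boxes and 2 GC boxes. An E-box is bound by basic helix-loop-helix factors such as MyoD, and a GC box by the Sp family. Of all 32851 windows of this length, 72.3% held an E-box and 35.7% a GC box, and none of the marked matches overlapped another. None of the 3 windows held the AP-1 motif TGANTCA (7.81% of all windows), the TEAD motif GGAATG (14.7%) or TATAAA (13.6%). The telomeric hexamer TTAGGG, found in 10.6% of all windows, occurred once in the Fbln5 window and not in those of Sparc or Fbln2. A G-quadruplex pattern, taken as 4 runs of at least 3 G with 1 to 7 bases between them on either strand, was in 18.6% of all windows and in none of these 3. The GC content was 55.3% for Sparc, 60.3% for Fbln2 and 65.7% for Fbln5, against a median of 52.7% over all windows. These matches describe letters only and show no binding.

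The libraries held between 620506 and 1351130 estimated counts, a shallow depth at which the lowest of the 9 genes rested on few reads. At least 19996 genes had a count in 15 libraries and 15389 in the 3 DPI library labelled cKO replicate 3. This library therefore stands apart, and the tests of the 9 genes and of the gene lists that include it are also given without it. Levels are in CPM, the count of a gene relative to the library's total after the trimmed mean of M-values (TMM) had set the 16 libraries on one scale. A gene was called when its adjusted p-value was under 0.02 and its fold change above 1.5 in edgeR's quasi-likelihood test, and "rose" and "fell" are used only for such genes. In uninjured muscle, the mean of Terf2 over 4 libraries was 76.4 CPM (SD 12.5) in control and 45.6 CPM (SD 13.2) in cKO MuSCs. The genotypes did not overlap, but the log2 fold change of -0.62 ± 0.27 (SE) was not called. At 3 DPI Terf2 was at 35.5, 48.6, 48.2 and 42.8 CPM in control MuSCs and at 52.6, 21.9, 66.9 and 89.7 CPM in those labelled cKO. Replicate 2 labelled cKO lay below every control library and the other 3 above, so the mean was not lower (43.8 and 57.8 CPM). Counts are per gene and do not separate deleted exons from the rest. The summed level of 12 MuSC markers did separate the 3 DPI libraries by label, at 1354 to 1725 CPM in control and 549 to 795 CPM in those labelled cKO, and was lower in cKO libraries of uninjured muscle as well. Terf2 alone thus does not check the label at 3 DPI, and every 3 DPI result named cKO below is that of the libraries labelled so.

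The 9 genes together held 0.271% of the counts in control and 0.139% in cKO libraries of uninjured muscle. Sparc alone held 0.144 to 0.186% in these control and 0.041 to 0.067% in these cKO libraries. At 3 DPI the 9 genes held 0.381% in control libraries (0.342 to 0.428%) and 0.419% in the libraries labelled cKO (0.293 to 0.508%), which overlap. Fn1 alone held 0.013 to 0.018% in control libraries of uninjured muscle and 0.166 to 0.222% in those at 3 DPI. In bulk samples, fewer cells of a type and less RNA per cell cannot be told apart, and this holds for each level below.

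**Figure D1:**
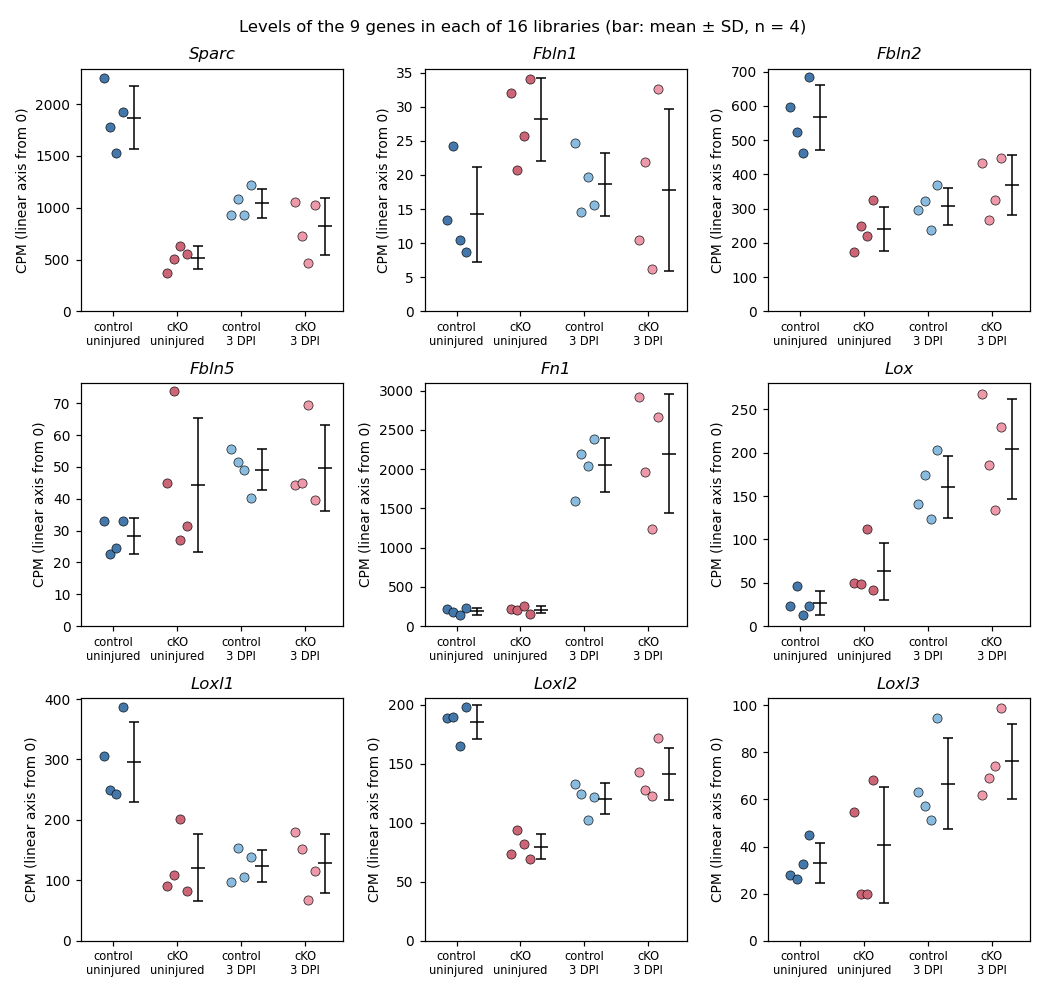
Points give the CPM (linear axis from 0) of each of the 9 genes in each of the 16 libraries, by group, and the bars beside them the mean ± SD of 4 libraries. Sparc, Fbln2, Loxl1 and Loxl2 had their highest means in control libraries of uninjured muscle, without overlap with either cKO uninjured or control 3 DPI libraries. Of these, only Loxl2 overlapped with cKO 3 DPI libraries, where it reached 171 CPM against a lowest 165 CPM in control uninjured libraries. Fn1 and Lox were highest at 3 DPI.

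Compared per length, in TPM (abundances per transcript length, scaled to a fixed total per library), Sparc led all 9 genes in every group. In control libraries of uninjured muscle Sparc was at 1601 ± 203 TPM (SD, n = 4), followed by Fbln2 at 290 ± 28.7 TPM, Loxl1 at 198 ± 31.0 TPM, Loxl2 at 79.5 ± 2.01 TPM and Fn1 at 53.3 ± 9.34 TPM. Each of these differed from its neighbour in that order without overlap between libraries. Loxl3 (18.0 ± 3.91 TPM), Lox (11.9 ± 6.41 TPM), Fbln5 (10.6 ± 1.62 TPM) and Fbln1 (9.55 ± 4.83 TPM) followed, and neighbours among these 4 overlapped.

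The order by TPM changed in the other groups. In cKO libraries of uninjured muscle Sparc, at 554 ± 104 TPM (SD, n = 4), still stood above Fbln2 at 154 ± 34.5 TPM, while Fbln2 overlapped Loxl1 and Loxl1 overlapped Fn1, and Fn1 lay above Loxl2 without overlap. In control libraries at 3 DPI Fn1 took the place below Sparc at 592 ± 60.6 TPM, with Sparc at 916 ± 94.9 TPM. In the 3 DPI libraries labelled cKO, Fn1 at 716 ± 199 TPM overlapped Sparc at 812 ± 224 TPM. Lox, which ranked below Loxl3 in control libraries of uninjured muscle, ranked above Loxl2 at 3 DPI in both genotypes, with 76.1 ± 15.9 TPM in control and 109.9 ± 19.4 TPM in cKO libraries. At 3 DPI Lox overlapped Loxl2 in control libraries (lowest Lox 55.6 TPM, highest Loxl2 66.0 TPM) and not in cKO libraries (88.4 and 83.5 TPM).

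**Figure D2:**
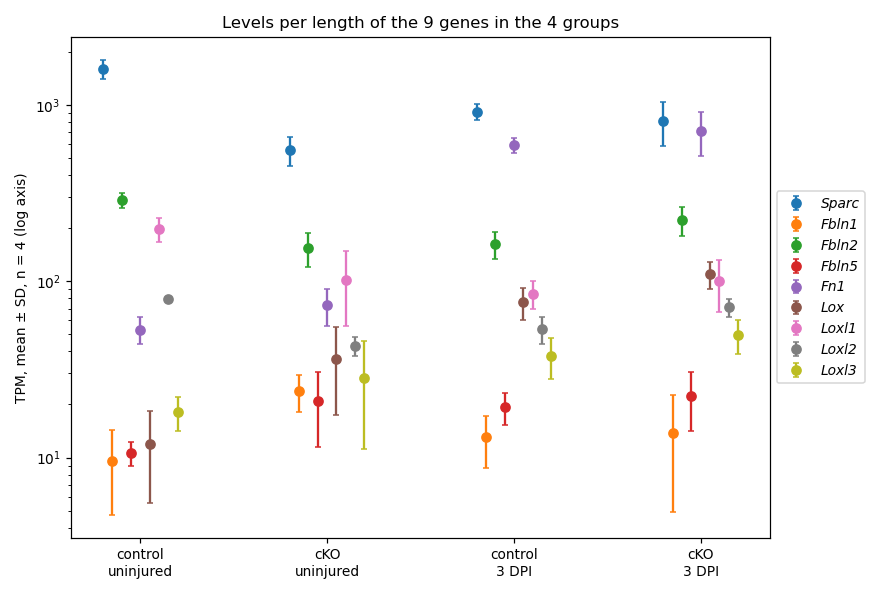
Points give the mean TPM ± SD (n = 4, log axis) of the 9 genes in the 4 groups, with 1 colour per gene. Sparc is highest in every group, and Fn1 moves from 53.3 to 592 TPM between control libraries of uninjured muscle and 3 DPI.

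Sparc lies on the minus strand of chromosome 11 of GRCm38, from 55394500 to 55423183 in GENCODE M21. In uninjured muscle, control libraries held 2248, 1783, 1524 and 1922 CPM of Sparc, and cKO libraries 370.4, 508, 634 and 556 CPM. Every cKO library was below every control library. The log2 fold change of Sparc was -1.73 ± 0.20 (SE), a 3.31-fold fall and the largest among the 9 genes in this comparison. Sparc was called in all 18 alternative settings, including each fit that left out 1 library, with log2 fold changes from -1.86 to -1.54.

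At 3 DPI, control libraries held 933, 1083, 928 and 1224 CPM of Sparc. The libraries labelled cKO held 1059.7, 727, 466 and 1025 CPM, which overlap the control values, and replicate 3 was the lowest. The log2 fold change between genotypes was -0.31 ± 0.26 (SE) at 3 DPI, and -0.14 without replicate 3. With injury, Sparc fell in control libraries by 0.80 ± 0.18 (SE) on the log2 scale. In cKO libraries the log2 fold change with injury was 0.59 ± 0.28 (SE), which was not called with all libraries. Without the cKO 3 DPI replicate 3 it was 0.82 and called.

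Fbln2, on chromosome 6 from 91212455 to 91272540 on the plus strand, encodes fibulin-2, which binds fibronectin, laminin and nidogen. Its levels in uninjured muscle were 597, 525, 462 and 683 CPM in control libraries and 173, 250.4, 219 and 326 CPM in cKO libraries. The genotypes did not overlap, and Fbln2 fell in cKO libraries with a log2 fold change of -1.10 ± 0.20 (SE). At 3 DPI, control libraries held 297, 324, 239 and 368 CPM of Fbln2 and libraries labelled cKO 435, 268, 326 and 447 CPM. These overlapped, at a log2 fold change of 0.31 ± 0.23 (SE). With injury Fbln2 fell by 0.84 ± 0.19 (SE) on the log2 scale in control libraries, and had a log2 fold change of 0.55 ± 0.26 (SE) that was not called in cKO libraries.

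Fbln1 and Fbln5 were lower in level and were called in no comparison by the edgeR test on all libraries. Fbln5, whose product binds elastin precursors and is needed for elastic fibre assembly, lies on the minus strand of chromosome 12 from 101746565 to 101819055. It was at 33.1, 22.5, 24.4 and 33.1 CPM in control and at 44.97, 73.8, 27.2 and 31.3 CPM in cKO libraries of uninjured muscle, which overlap, at a log2 fold change of 0.79 ± 0.34 (SE). At 3 DPI Fbln5 was at 55.6, 51.5, 49.2 and 40.3 CPM in control and at 44.4, 44.98, 69.4 and 39.6 CPM in cKO libraries. Every control library at 3 DPI was above every control library of uninjured muscle, with a log2 fold change of 0.83 ± 0.30 (SE) that was not called. It was called higher by limma's robust fit (0.80), with scaling by library size alone (1.004) and with a minimum of 10 counts in every library (0.94).

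Fbln1, on the plus strand of chromosome 15 from 85205949 to 85286535, encodes a fibulin of basement membranes and elastic fibres. It rested on 5 to 28 estimated counts per library. Its level in uninjured muscle was 13.4, 24.3, 10.5 and 8.77 CPM in control and 31.96, 20.8, 25.8 and 34.0 CPM in cKO libraries, and the ranges overlapped at 1 library of each genotype. The log2 fold change was 1.09 ± 0.44 (SE). At 3 DPI Fbln1 ran from 14.6 to 24.7 CPM in control and from 6.2 to 32.6 CPM in cKO libraries. The log2 fold change was -0.02 ± 0.61 (SE) and was not called.

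Fn1, on the minus strand of chromosome 1 from 71585520 to 71653200, encodes fibronectin. Its levels in uninjured muscle were 217, 176, 136 and 236 CPM in control and 218, 208, 260.5 and 155 CPM in cKO libraries. The genotypes overlapped, at a log2 fold change of 0.27 ± 0.20 (SE). At 3 DPI Fn1 was at 1589, 2199, 2045 and 2385 CPM in control libraries, and all 4 were above every uninjured library. Libraries labelled cKO held 2922, 1961, 1234 and 2664 CPM at 3 DPI, with the lowest value in replicate 3. Fn1 rose with injury by a log2 fold change of 3.47 ± 0.21 (SE) in control libraries, an 11.1-fold rise, and of 3.31 ± 0.30 (SE) in cKO libraries, a 9.92-fold rise. The interaction, which is the injury change in cKO minus that in control libraries, was -0.04 ± 0.35 (SE) for Fn1.

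Lox encodes the founding lysyl oxidase, which crosslinks fibrillar collagens and elastin. It was at 23.2, 45.9, 12.8 and 23.4 CPM in control and 49.7, 48.8, 112 and 42.2 CPM in cKO libraries of uninjured muscle. The highest control library overlapped the lowest cKO library, and cKO replicate 3 stood far above the other 3. Lox rose in cKO libraries with a log2 fold change of 1.36 ± 0.35 (SE). This call was lost without cKO replicate 3, where the log2 fold change was 0.93, and without control replicate 1, 3 or 4. At 3 DPI Lox was at 141, 174, 124 and 203 CPM in control and 268, 186, 134 and 229 CPM in cKO libraries, which overlap. With injury Lox rose in control libraries with a log2 fold change of 2.63 ± 0.27 (SE) and in cKO libraries with 1.63 ± 0.35 (SE). The call in cKO libraries was lost in each fit without cKO uninjured replicate 1, 2 or 4 or cKO 3 DPI replicate 1, 2 or 4. It was also lost with the rescaled table and with a replicate block.

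Loxl1, which acts on elastin and is anchored to elastic fibres by fibulin-5, lies on the minus strand of chromosome 9 from 58287738 to 58313186. In uninjured muscle it was at 306, 249, 243 and 386 CPM in control and at 91.1, 109, 202 and 81.7 CPM in cKO libraries. The genotypes did not overlap, and Loxl1 fell in cKO libraries with a log2 fold change of -1.17 ± 0.23 (SE). At 3 DPI it was at 97.3, 154, 105 and 138 CPM in control and 179.9, 151, 66.9 and 115 CPM in cKO libraries, and the lowest value was that of replicate 3. Loxl1 fell with injury in control libraries by 1.21 ± 0.20 (SE) on the log2 scale, the largest fall among the 9 genes in that comparison. In cKO libraries its log2 fold change with injury was 0.02 ± 0.36 (SE).

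Loxl2, on the plus strand of chromosome 14 from 69609068 to 69695834, encodes an enzyme that crosslinks collagen IV of basement membranes. It was at 189, 189, 165 and 198 CPM in control and 73.4, 93.5, 81.6 and 69.5 CPM in cKO libraries of uninjured muscle. These values had the smallest spread relative to their means among the 9 genes and did not overlap. Loxl2 fell in cKO libraries with a log2 fold change of -1.09 ± 0.21 (SE). At 3 DPI it was at 133, 124, 102 and 122 CPM in control and 143, 128, 123 and 171 CPM in cKO libraries. Loxl2 fell with injury in control libraries by 0.59 ± 0.19 (SE) on the log2 scale, a 1.501-fold fall at the edge of the threshold. This call was lost without any of control uninjured replicates 1, 2 and 4 and without any of the 4 control 3 DPI replicates, so it depends on which libraries enter. Beside the fit without control uninjured replicate 3, the call held by limma-voom, by DESeq2 and with median-of-ratios size factors, and in no other alternative. In cKO libraries every 3 DPI value of Loxl2 was above every uninjured one, with a log2 fold change of 0.76 ± 0.26 (SE) that was not called. It was called in the fit of all 16 libraries, at 0.83.

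Loxl3, on the plus strand of chromosome 6 from 83034173 to 83052562, encodes a further lysyl oxidase of the matrix. Its exons overlap those of Htra2 on the opposite strand. The library kit keeps strand, but whether the counting used it is not given in the sources used here, so reads of the 2 genes may not be fully told apart. Exons of Fn1, Lox and Loxl2 also overlap annotated genes on the opposite strand, Apol7d in the case of Fn1, and the same limit holds for them. Loxl2 further overlaps Mir6950 on the same strand, which counting by strand would not separate. Loxl3 was at 27.7, 26.1, 32.6 and 44.8 CPM in control and at 54.4, 19.7, 20.04 and 68.1 CPM in cKO libraries of uninjured muscle, where the cKO values lay on both sides of the control range. At 3 DPI it was at 63.3, 57.4, 51.1 and 94.6 CPM in control and 61.9, 69.2, 74.4 and 99.0 CPM in cKO libraries. Loxl3 rose with injury in control libraries with a log2 fold change of 1.07 ± 0.28 (SE). This call was lost without control uninjured replicate 2, without control 3 DPI replicate 4, with the rescaled table and in the fit of all 16 libraries. In cKO libraries the log2 fold change was 0.84 ± 0.45 (SE) and was not called.

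The first comparison, of cKO with control libraries in uninjured muscle, asks what deletion of TRF2 changes in MuSCs before injury. Of the 9 genes, 4 fell (Sparc, Fbln2, Loxl1, Loxl2), 1 rose (Lox) and 4 were not called. Over all 14048 genes tested, 2.63% fell and 0.584% rose. The 4 genes that fell were also those without overlap between genotypes, whereas over all genes 9.18% were lower and 3.43% higher without overlap. The 9 genes' median log2 fold change was 0.27, against 0.06 over all genes. With the table of rescaled abundances in place of the counts, 1 of the 9 (Sparc) was called lower and none higher, and Lox was also not called by limma's robust fit, by limma-voom or in the fit of all 16 libraries. The lysyl oxidases went different ways, with Loxl1 and Loxl2 lower, Lox higher, and Loxl3 at 0.43 ± 0.36 (SE) on the log2 scale. Control and cKO libraries of uninjured muscle share no code in the labels' description field, so a difference between those codes and a difference between genotypes cannot be told apart here.

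Levels of cell type markers moved beside these changes. Of 12 MuSC markers, 8 fell in cKO libraries of uninjured muscle, with a summed level of 4251 to 6827 CPM in control and 2558 to 3589 CPM in cKO libraries. Of 9 tested markers of fibroadipogenic progenitors, the matrix-producing cells between fibres, Dpt, Col3a1 and Gsn fell and Dcn rose, and the median log2 fold change of the 9 was 0.64. The summed level of the 11 markers was 6251 to 9667 CPM in control and 2234 to 3876 CPM in cKO libraries. The marker with the highest level was Col3a1, with a mean of 5313 CPM in control and 1114 CPM in cKO libraries, whereas the means of the 8 markers other than Col3a1, Dpt and Gsn, among them Pdgfra (34.6 and 67.5 CPM), were higher in cKO libraries. Of 7 mural cell markers, Rgs5 and Cspg4 rose and 5 were not called, and the summed level was 2285 to 3303 CPM in control and 1894 to 2686 CPM in cKO libraries. Macrophage and leukocyte markers summed to 78.0 to 119 CPM in control and 124 to 189 CPM in cKO libraries, without overlap, while none of the 7 tested was called (median log2 fold change 0.61). No tested marker of tenocytes, endothelium, Schwann cells or myofibers was called. No marker of these lists was at 0 in all libraries of a group. The part of these cell types in the levels of the 9 genes was not tested.

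At 3 DPI, cKO against control libraries, none of the 9 genes was called in either direction. Over all 14559 genes tested 0% were called lower and 0% higher by edgeR, with 1362 genes at an unadjusted p under 0.05. DESeq2 called 17 genes lower and 5 higher, limma's robust fit 18 and 10, and edgeR without cKO replicate 3 called 13 and 3, with none of the 9 among them. The log2 fold changes of the 9 genes ran from -0.31 (Sparc) to 0.39 (Lox), with errors from 0.23 to 0.61. Without cKO replicate 3 they ran from -0.17 (Fbln5) to 0.52 (Lox), and those of Fbln5 (0.07 with all libraries) and Fbln1 (-0.02 with all, 0.25 without) changed sign. Replicates 1 and 2 of both genotypes share 1 code in the description field at 3 DPI. Within these 4 libraries the log2 fold change was -0.17 for Sparc, 0.19 for Fbln2, 0.53 for Lox and 0.08 for Loxl2, and none of the 9 was called. Beside this, the summed MuSC markers were lower in the libraries labelled cKO without overlap, with the ranges given above and a median log2 fold change of -0.98 over 12 markers. None of the 12 was called with all libraries, and Itga7, Cdh15, Fgfr4 and Des were called lower without cKO replicate 3. Macrophage and leukocyte markers (4991 to 6330 CPM in control, 2138 to 5863 CPM in cKO libraries) and fibroadipogenic progenitor markers (5352 to 7934 and 4190 to 8208 CPM) overlapped in their sums, and none was called with or without that replicate. The part of these cell types in the values of the 9 genes at 3 DPI was not tested.

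The injury comparison in control libraries asks what differs at 3 DPI in MuSCs with TRF2. Most uninjured libraries of each genotype carry a code in the labels' description field that no 3 DPI library carries. A difference between codes and one with injury therefore cannot be fully told apart, here or in cKO libraries. Of the 9 genes, 4 fell (Sparc, Fbln2, Loxl1, Loxl2), 3 rose (Fn1, Lox, Loxl3) and 2 were not called (Fbln1, Fbln5). Over all 15356 genes tested, 9.46% fell and 10.8% rose. Of the 9, 8 were without overlap between groups, 4 lower and 4 higher, whereas over all genes 12.3% were lower and 12% higher without overlap. The 4 genes that fell were those that fell in cKO libraries of uninjured muscle, a list that the choice of genes partly fixes, and both comparisons share the 4 control libraries of uninjured muscle. Beside these changes, 9 of 9 macrophage and leukocyte markers rose, among them Lyz2, Adgre1 and Ptprc, from a summed 78.0 to 119 CPM in uninjured to 4991 to 6330 CPM in 3 DPI control libraries. Of the 12 MuSC markers 10 fell and Cxcr4 rose, and of 11 fibroadipogenic progenitor markers 7 rose, including Pdgfra, Dcn and Col1a1, and 3 fell. Of 7 mural cell markers, Acta2 and Notch3 fell and none rose. Their summed level was 2285 to 3303 CPM in uninjured and 830 to 1093 CPM in 3 DPI control libraries. The mural marker with the highest level was Notch3, with a mean of 1749 CPM in uninjured and 253 CPM in 3 DPI control libraries. The means of Rgs5, Pdgfrb and Cspg4 were higher at 3 DPI, and those of Myh11 and Kcnj8 were lower. Of 7 endothelial markers, Tek fell and none rose, at a median log2 fold change of 0.37. Their sum was 419 to 644 CPM in uninjured and 486 to 669 CPM in 3 DPI control libraries. The sort selected against CD45, CD11b and Sca1, and their genes Ptprc (mean 13.4 to 227 CPM), Itgam (15.5 to 393 CPM) and Ly6a (9.21 to 33.8 CPM) were among the markers that rose. Fn1 and Lox rose together with those markers, and the part of these cells in their rise was not tested. The part of MuSCs, mural and endothelial cells in the falls among the 9 genes was not tested either.

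In cKO libraries, Fn1 and Lox rose with injury and none of the 9 fell. Over all 14578 genes tested, 2.43% rose (354 genes) and 1.61% fell (235). Without the cKO 3 DPI replicate 3, 803 genes rose and 513 fell, and the log2 fold changes with injury were 3.54 for Fn1 and 1.82 for Lox, both called. Those of Fbln2 (0.62), Loxl1 (0.26), Loxl2 (0.85), Loxl3 (0.88), Fbln1 (-0.41) and Fbln5 (-0.10) were not called without it. Of the macrophage and leukocyte markers, 8 of 9 rose, from a summed 124 to 189 CPM to 2138 to 5863 CPM. Of the 12 MuSC markers 8 fell, from a summed 2558 to 3589 CPM to 549 to 795 CPM, and of the fibroadipogenic progenitor markers Col1a1 and Col1a2 rose. Of the 7 mural cell markers Notch3 fell, and their summed level went from 1894 to 2686 CPM in uninjured to 907 to 1108 CPM in 3 DPI libraries. Notch3 alone went from a mean of 1244 to 180 CPM. The means of Pdgfrb and Kcnj8 were higher at 3 DPI, and those of Rgs5, Acta2, Myh11 and Cspg4 were lower. Ptprc and Itgam were among the markers that rose here too, and Ly6a was not called. Without replicate 3, all 9 macrophage and leukocyte markers and 5 of 11 fibroadipogenic progenitor markers were called higher, and 10 MuSC markers lower and Cxcr4 higher. The part of these cells in the changes of Fn1 and Lox was not tested here either. Sparc joined the genes that rose when replicate 3 was left out. The interaction called 3 of 16822 genes lower (0.0178%) and 0% higher, with 966 genes at an unadjusted p under 0.05, and none of the 9. DESeq2 called 15 lower and 9 higher, and limma's robust fit 78 and 45, while edgeR without cKO 3 DPI replicate 3 called 9 lower and 4 higher. The largest interaction values were 1.51 ± 0.34 (SE) for Sparc, 1.49 ± 0.33 (SE) for Fbln2, 1.45 ± 0.31 (SE) for Loxl2 and 1.35 ± 0.42 (SE) for Loxl1, and the lowest were -1.02 ± 0.74 (SE) for Fbln1 and -0.89 ± 0.48 (SE) for Lox. By DESeq2 the interaction was called for Sparc, Fbln2 and Loxl2, by limma's robust fit for Loxl2, and without cKO 3 DPI replicate 3 for Sparc (1.59), where Fbln2 (1.44), Loxl2 (1.40), Loxl1 (1.44), Fbln1 (-0.85) and Lox (-0.84) were not called. In the fit without that replicate the fibroadipogenic progenitor marker Col3a1 was called higher too. With all libraries no cell type marker was called in the interaction. The part of these cell types in the interaction values was not tested.

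**Figure D3:**
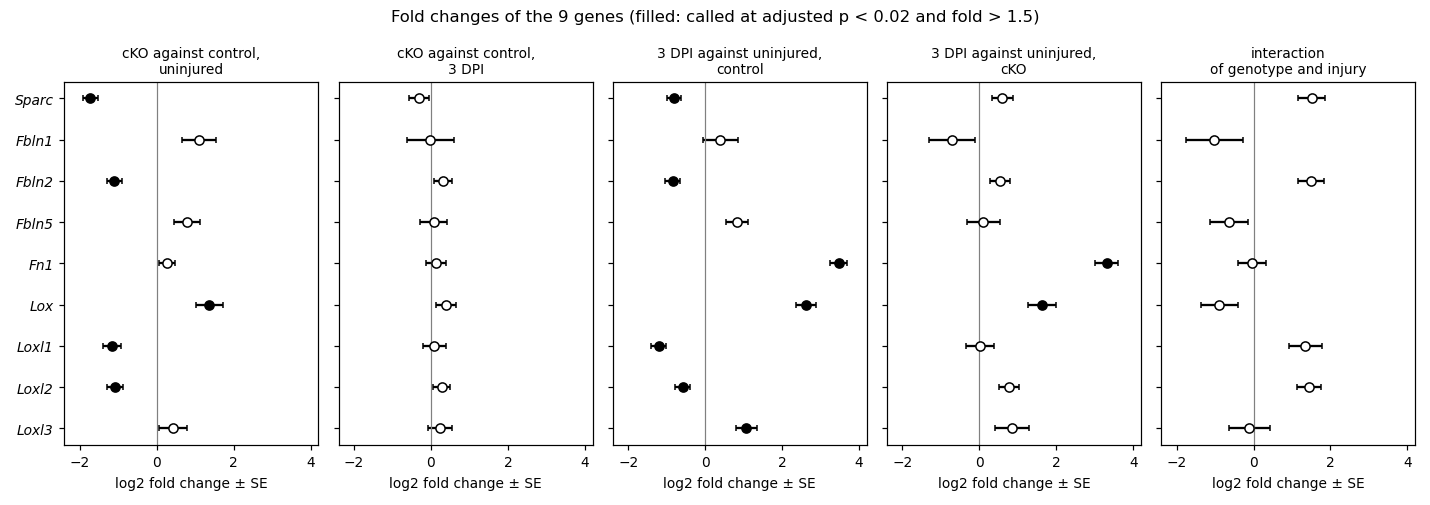
Points give the log2 fold change ± SE of the 9 genes (rows) in the 5 comparisons (panels), and filled points mark calls at an adjusted p under 0.02 and a fold above 1.5. Filled points lie on the left for Sparc, Fbln2, Loxl1 and Loxl2 in the uninjured genotype panel and the control injury panel and on the right for Fn1 and Lox in both injury panels, whereas the 3 DPI genotype panel and the interaction panel hold none.

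Over the 16 libraries, the log2 CPM of Sparc, Fbln2, Loxl1 and Loxl2 moved together, with Pearson's r of 0.85 between Sparc and Fbln2, 0.85 between Sparc and Loxl2, 0.82 between Sparc and Loxl1 and 0.865 between Fbln2 and Loxl2. Fn1 and Lox formed another pair with r = 0.90, and Sparc and Fn1 had r = -0.04. Fbln1 had no r above 0.13 with any of the other 8. These values are descriptions over libraries that share groups and depth, and much of them is the difference between the 4 groups. Within groups, after each group's mean was removed, r was 0.66 between Sparc and Fbln2, 0.77 between Sparc and Fn1 and 0.49 between Fbln2 and Loxl2, but 0.36 between Loxl1 and Loxl2 and 0.18 between Fbln2 and Loxl1. Fn1 and Lox had r = 0.65 within groups. The r of Loxl3 went from 0.71 to -0.13 with Fn1 and from 0.59 to -0.31 with Lox. The highest r within groups was 0.81 between Fn1 and Loxl1, against -0.34 over the 16 libraries.

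**Figure D4:**
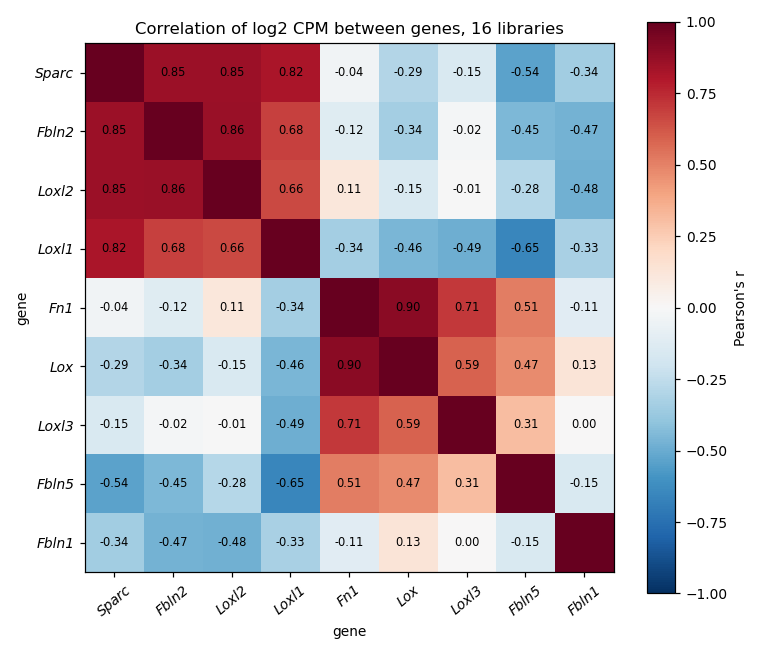
Each cell gives Pearson's r of log2 CPM between 2 of the 9 genes over 16 libraries, from blue (negative) to red (positive). Sparc, Fbln2, Loxl2 and Loxl1 form one block with r from 0.66 to 0.865, and Fn1, Lox and Loxl3 another with r from 0.59 to 0.90.

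Among 15516 genes with a mean of at least 10 CPM, those most like Sparc over the 16 libraries were Mbnl1 (r = 0.95), an RNA-splicing factor, Col3a1 (r = 0.95), a fibrillar collagen, and Rpl15 (r = 0.91). Those most like Fn1 were Spp1 (r = 0.99), which encodes osteopontin, Cotl1 (r = 0.98), which encodes an actin-binding protein, and Sirpa (r = 0.98), a receptor of myeloid cells. Those most like Lox were Col6a3 (r = 0.95), a collagen VI chain, Ctsc (r = 0.93) and Vcan (r = 0.93), a matrix proteoglycan. Col3a1 was also among the 3 genes most like Fbln2 (r = 0.85) and Loxl2 (r = 0.86). For Fbln1, Fbln5, Loxl1 and Loxl3 the highest r was between 0.81 and 0.88, reached by genes outside the matrix such as Apba2, Chek1, Arfip2 and Chaf1b.

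Partner genes of these proteins were taken from lists written with earlier results of these libraries known, and they are not among the 9.  Of 5 other fibulin and lysyl oxidase family genes in the table (Efemp1, Efemp2, Fbln7, Hmcn1, Loxl4), none was called between genotypes, with a median log2 fold change of 0.49 in uninjured muscle, and only Hmcn1, which encodes hemicentin-1, fell with injury in control libraries (log2 fold change -0.68 ± 0.21 (SE), adjusted p = 0.0106 by edgeR). The call of Hmcn1 held in 9 of 18 alternatives and was lost, among others, without control uninjured replicate 1 (-0.70) or 4 (-0.71) and without control 3 DPI replicate 3 (-0.53). In the SPARC family, Fstl1, a secreted follistatin-like protein, fell in cKO libraries of uninjured muscle by 1.13 ± 0.20 (SE) on the log2 scale (adjusted p = 0.00033 by edgeR), and Smoc2, a modular calcium-binding matricellular protein, rose by 1.31 ± 0.32 (SE) (adjusted p = 0.0076). The call of Fstl1 held in 15 of 18 alternatives. The call of Smoc2 held in 11 of 18 alternatives and was lost, among others, without control replicate 1, 2 or 4 or cKO replicate 3 or 4, where the log2 fold changes stayed within 1.03 to 1.45. The other 5 tested, Sparcl1 among them, were not called. With injury in control libraries Spock1, a testican proteoglycan, fell (-1.53 ± 0.33 (SE), adjusted p = 0.000252) and Smoc2 rose (1.14 ± 0.31 (SE), adjusted p = 0.00412), which was not called without control 3 DPI replicate 4 (0.86).

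Of 10 tested genes of elastic fibres and microfibrils, on which fibulins and LOXL1 act, 2 fell and 1 rose in cKO libraries of uninjured muscle. Fbn1, which encodes the microfibril protein fibrillin-1, went from 921 ± 236 to 392 ± 80.4 CPM (SD, n = 4), with a log2 fold change of -1.10 ± 0.20 (SE) and an adjusted p = 0.000351 by edgeR. The call of Fbn1 held in 16 of 18 alternatives. Ltbp1, a latent TGF-β binding protein, had a log2 fold change of -0.71 ± 0.19 (SE) at an adjusted p = 0.0199, and its call held in 7 of 18 alternatives and, of the fits that left out 1 library, only in that without control replicate 3 (range -0.80 to -0.63). Ltbp2 rose from 19.7 ± 1.96 to 49.6 ± 12.6 CPM (SD, n = 4), with a log2 fold change of 1.45 ± 0.34 (SE) and an adjusted p = 0.00566 by edgeR. Its call held in 12 of 18 alternatives and was lost, among others, without control replicate 1 or 2 or cKO replicate 1 or 3 (range 1.32 to 1.60). With injury in control libraries 3 of 12 fell and 4 rose. The largest falls were those of Ltbp4 (-2.66 ± 0.21 (SE), adjusted p = 5.12e-14) and Ltbp1 (-2.21 ± 0.21 (SE), adjusted p = 1.47e-11), and Emilin2, a microfibril-associated glycoprotein, rose (2.33 ± 0.21 (SE), adjusted p = 2.9e-12). In cKO libraries 3 of 11 fell with injury, namely Ltbp4, Ltbp1 and Ltbp3, and none rose. Without cKO 3 DPI replicate 3 the same 3 of 12 fell, and Eln, Fbn1 and Emilin2 rose.

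Of 15 fibronectin receptor and assembly genes, Itgb1 and Sdc4 fell in cKO libraries of uninjured muscle and none rose. Itgb1, the β1-integrin subunit that pairs in the main fibronectin receptors, went from 318 ± 70.0 to 169 ± 38.3 CPM (SD, n = 4) with an adjusted p = 0.0118 by edgeR, and its call held in 8 of 18 alternatives and not without control replicate 1, 2 or 4 or cKO replicate 1, 2 or 3 (range -0.97 to -0.69). Sdc4, a heparan sulphate proteoglycan that binds fibronectin and marks MuSCs, went from 557 ± 119 to 278 ± 37.9 CPM (SD, n = 4) with an adjusted p = 0.00309, and its call held in 13 of 18 alternatives and not without control replicate 2 or 4 (range -1.02 to -0.83). With injury in control libraries, where Fn1 rose, 6 of the 15 rose and 2 fell. Sdc3 rose by a log2 fold change of 2.41 ± 0.21 (SE) with an adjusted p = 7.04e-13, and Itga4, the α4-integrin subunit found on leukocytes as well, by 2.45 ± 0.25 (SE) with an adjusted p = 1.2e-10. Sdc4 fell by 1.92 ± 0.20 (SE) on the log2 scale with an adjusted p = 2.65e-10. In cKO libraries 4 rose with injury, among them Sdc3, Itgb5 and Itga5, and 1 fell (Sdc4). Without cKO 3 DPI replicate 3 these calls held and Itga4 was also called higher.

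Of 7 tested genes that process lysyl oxidases and procollagens or supply copper, none was called between genotypes in uninjured muscle. Bmp1, the protease that cleaves the LOX propeptide, fell with injury by 1.36 ± 0.20 (SE) on the log2 scale in control libraries (adjusted p = 4.43e-07 by edgeR) and by 1.23 ± 0.26 (SE) in cKO libraries (adjusted p = 0.0091), where Lox rose. The call of Bmp1 in cKO libraries held in 11 of 18 alternatives and was lost, among others, without cKO uninjured replicate 1, 3 or 4 or cKO 3 DPI replicate 1 or 4 (range -1.34 to -1.15). Pcolce, which enhances procollagen processing, rose in control libraries (1.52 ± 0.27 (SE), adjusted p = 2.25e-05). Without cKO 3 DPI replicate 3 Pcolce was called higher in cKO libraries too, and in the SPARC family Fstl1. The copper transporter genes Atp7a and Slc31a1 were not called in either.

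Of 16 tested genes of other matricellular proteins, which share with SPARC a signalling rather than a structural role, Cyr61 and Thbs2 fell in cKO libraries of uninjured muscle. Cyr61, a CCN protein, went from 363 ± 30.9 to 143 ± 27.7 CPM (SD, n = 4) with a log2 fold change of -1.22 ± 0.20 (SE) and an adjusted p = 5.35e-05 by edgeR. The call of Cyr61 held in 16 of 18 alternatives. Thbs2, which encodes thrombospondin-2, went from 240.1 ± 53.7 to 124 ± 19.6 CPM (SD, n = 4) with an adjusted p = 0.0091, and its call held in 10 of 18 alternatives and not without control replicate 2 or 4 or cKO replicate 1 or 2 (range -0.94 to -0.72). With injury in control libraries 7 of 17 rose and 4 fell. Spp1 rose from 5.75 ± 4.13 to 6311 ± 3413 CPM (SD, n = 4), with an adjusted p = 2.52e-05, Tgfbi by a log2 fold change of 3.58 ± 0.23 (SE) with an adjusted p = 6.06e-17, and Thbs1 by 3.12 ± 0.20 (SE) with an adjusted p = 1.35e-16. In cKO libraries 5 of 17 rose, among them Spp1, Tgfbi and Tnc, and 1 fell, Tnxb, which encodes tenascin-X (-2.04 ± 0.37 (SE), adjusted p = 0.00337 by edgeR). Without cKO 3 DPI replicate 3 these 6 calls held and Thbs4 was also called higher. No gene of the 6 lists was called between genotypes at 3 DPI or in the interaction, with or without that replicate.

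**Figure D5:**
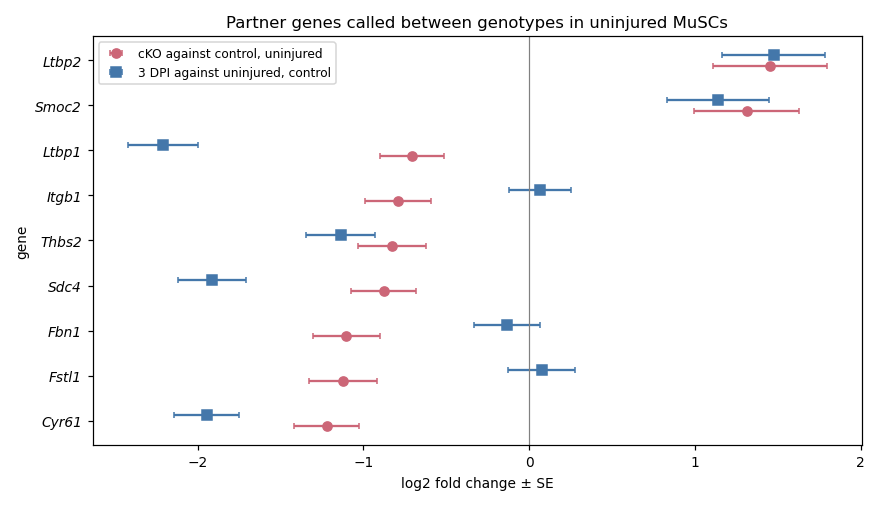
Points give the log2 fold change ± SE of the 9 partner genes called between genotypes in uninjured muscle, as circles for cKO against control and as squares for 3 DPI against uninjured in control libraries, which share the 4 control libraries of uninjured muscle. Fstl1, Fbn1 and Itgb1 lie left of 0 for genotype and near 0 for injury, whereas Cyr61, Sdc4, Thbs2 and Ltbp1 lie left of 0 for both.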

How the data were processed

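Ribosomal RNA was removed from RNA of sorted MuSCs, and strand-specific libraries were prepared with the CORALL kit. Per the labels' processing notes, reads were processed with Trim Galore 0.6.7, STAR 2.6.1d and Salmon 1.5.2 on GRCm38; the collapse of molecular identifiers, the use of strand in counting and the annotation release are not given in the sources used here. The authors deposited estimated counts per gene from Salmon (expected counts, not normalized) for 16 libraries, and a second table of estimated counts rescaled from abundances to each library's total, which gave TPM and 1 alternative.

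Counts were rounded, filtered with filterByExpr, scaled by TMM and tested over all genes in edgeR 4.0.16 (robust quasi-likelihood, R 4.3.3) with Benjamini-Hochberg adjustment, on the 8 libraries of each pair of groups, and on 16 for the interaction. A call needed an adjusted p under 0.02 and a fold above 1.5. Log2 CPM had a prior count of 2. The test was checked on simulated counts for the genotype comparison in uninjured muscle and the injury comparison in control libraries. The simulated spread between libraries was smaller than that of the other comparisons, which this check does not cover. Depth was 620506 to 1351130 counts per library, which limits low genes. Alternatives were limma 3.58.1, DESeq2 1.42.0, other scalings and filters, the rescaled table, a replicate block, all libraries in one fit, the 3 DPI libraries of 1 description code, and leaving out each library. The genes and the lists were chosen with earlier results of these data known. Named genes were the 9, Terf2, list genes called between genotypes, the 3 most changed called genes of each list with injury, and the 3 most correlated genes of each of the 9. Gene positions are from GENCODE M21 and promoter windows from RefSeq; figures were drawn with matplotlib 3.10.9.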

Additional observations from a re-analysis of the deposited data

Results flagged for a closer look

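Lox in cKO uninjured replicate 3 was at 112 CPM, while the other 3 cKO libraries lay between 42.2 and 49.7 CPM, a gap larger than Dixon's critical value for 4 libraries allows. It was the only such value among 36 sets of 4 libraries (9 genes in 4 groups), of which chance alone marks about 1 in 20.

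For Fbln2, all 4 control 3 DPI libraries were below the mean of the control uninjured libraries, and all 4 cKO 3 DPI libraries were above the mean of the cKO uninjured libraries. The injury change in cKO libraries was not called and its groups overlapped. The interaction was 1.49 on the log2 scale and was not called by edgeR. For Loxl2, the libraries lay on the same sides of these means, and all 4 cKO libraries were also below the control mean in uninjured muscle and above it at 3 DPI. Neither its injury change in cKO libraries nor its genotype difference at 3 DPI, where the groups overlapped, was called, and its fall with injury in control libraries was lost in most alternatives. Its interaction was 1.45, also not called by edgeR.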

How the results depend on the processing

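No fold change that was called among the 9 genes changed sign in any setting tried. In uninjured muscle, 4 of the 9 were called lower, with 1 (Sparc) in the rescaled table, 3 in the fit of all 16 libraries, where Loxl1 was not called, and 4 in each other alternative. The count called higher, 1 for Lox, was 0 by limma's robust fit, by limma-voom, with the rescaled table and in the fit of all 16 libraries, and 0 to 1 when 1 library was left out. With injury in cKO libraries, 2 were called higher, 1 with the rescaled table, 3 in the fit of all 16 libraries, which added Loxl2, and 1 to 3 when 1 library was left out. Same-numbered libraries correlated only between -0.10 and 0.12 in their deviations from group means, so the main fits did not pair them. In uninjured muscle the same-numbered control library was still the best match for cKO replicates 2, 3 and 4 (r = 0.12, 0.05 and 0.04). With a replicate block, 448 genes were called lower and 88 higher in that comparison, against 370 and 82. With injury in cKO libraries the block called 1 of the 9 higher (144 genes lower and 220 higher in all, against 235 and 354). With injury in control libraries it called 3 of the 9 lower, without Loxl2, and the interaction called 1 gene lower in place of 3. The interaction called none of the 9 higher, against 1 by limma's robust fit, 3 by DESeq2 and 0 to 1 when 1 library was left out. The cause of these shifts was not tested. Over all genes in uninjured muscle, 370 were called lower and 82 higher, against 11 to 509 and 6 to 190 under other settings and 214 to 488 and 40 to 86 when 1 library was left out. Scaling by library size alone shifted the median over all genes on the log2 scale from 0.06 to 0.24 in uninjured muscle and from 0.07 to 0.23 with injury in control libraries, and the genes called among the 9 were the same in uninjured muscle, while with injury in control libraries Loxl2 was no longer called and Fbln5 was. Fbln1, Fbln5 and Loxl3, and in uninjured muscle Lox, rested on the fewest counts of the 9 genes.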
